A study of Mus musculus with 4 samples.

Results

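The 37 genes described here encode RNA polymerase II and the factors that hold it, release it and travel with it during elongation and termination. They were chosen by name from the list of elongation and pausing factors that surround Tox4. The rule names genes without using a measured value, but the list was chosen with earlier results of these data known. All 37 were found among the 32285 genes counted in each library, and together they took 0.287% of the UMIs (unique molecular identifiers, 1 per captured mRNA molecule) in the cells kept. They were followed across the stages of thymocyte development and between control and Tox4-deficient thymocytes.

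Thymocytes of 4 mice on a C57BL/6 background were profiled by droplet single-cell RNA-seq, which tags the 3′ end of each mRNA. The 2 control libraries came from Tox4 F/F mice, whose Tox4 alleles are floxed at exons 4 to 6 but intact. The 2 cKO libraries came from littermates with the same floxed alleles that also carried Lck-Cre, a Cre transgene under the proximal Lck promoter, so that deletion begins within the double-negative stage, at DN3, and every later T cell stage can carry it. The mice were matched for sex and 6 to 8 weeks old, and nothing was given to either group. Deletion was limited to Lck-expressing cells, so that stromal and myeloid cells of the same thymus kept Tox4, and with 2 mice a genotype an exact permutation test of a single value cannot go below p = 0.333.

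After transcription starts, the polymerase halts a short way into most genes, bound by DSIF (Supt4a and Supt5) and NELF (Nelfa, Nelfb, Nelfcd and Nelfe). The kinase P-TEFb (Cdk9 with cyclin Ccnt1 or Ccnt2) releases it by phosphorylating DSIF, NELF and the polymerase tail, and the 7SK particle (Hexim1, Larp7 and Mepce) stores P-TEFb in an inactive form. The super elongation complex (Aff1 or Aff4 with Ell, Ell2, Mllt1 or Mllt3) brings P-TEFb to genes, while the PAF complex, Spt6, Iws1 and the histone chaperone FACT (Supt16 and Ssrp1) accompany the moving enzyme through chromatin. Cdk12 and Cdk13 with cyclin Ccnk phosphorylate the tail within gene bodies, Tcea1 rescues backtracked enzyme, and Xrn2, Pcf11 and Integrator (Ints1, Ints6 and Ints11) end transcription. Tox4 itself is a partner of the PNUTS-PP1 phosphatase, which removes phosphates from the polymerase tail and from Supt5.

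Filtering left 33414 of 57354 barcodes. After clustering, 28894 of them fell in 6 classes of alpha-beta T cell development named from fixed marker genes, with the 37 genes and 71 further pathway genes kept out of the clustering. The classes were DN (double-negative, 637 cells, led by Il2ra and Tcrg-C1), DPbla (cycling double-positive blasts, 3519 cells, led by Mki67, Top2a and Hells), DPre (resting double-positive cells that rearrange the T cell receptor, 16600 cells, led by Rag1), DPsel (double-positive cells under selection, 4770 cells, led by Cd5 and Itm2a), CD4SP (1975 cells, led by Igfbp4 and S1pr1) and CD8SP (1393 cells, led by Nkg7). The kept libraries held 24631981 to 41978515 UMIs, and the sums per stage and library used below ran from 648270 UMIs (DN, control 1) to 14121330 UMIs (DPre, cKO 2). Each pair of libraries shared 36 to 70 barcodes, and 6 clusters with 9.02% of the kept cells stayed unnamed. Macrophage markers were present at 133 to 320 CPM (UMIs of a gene per 1000000 UMIs of the sum) summed over 10 genes in the 6 stages, against 12223 to 17880 CPM in the phagocyte clusters. Tox4 mRNA could not check the genotypes, since a 3′ tag lies outside exons 4 to 6. In all double-positive cells it stood at 71.7 and 74.5 CPM in controls against 56.7 and 60.8 CPM in cKO (log2 difference -0.26, SE 0.099, edgeR adjusted p = 0.139). Over 15 alternative settings the Tox4 difference was between -0.31 and -0.23, and 1 of them called it.

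The 37 mRNAs together made up a similar share of the transcriptome in every stage but a very different number of molecules per cell. Their summed level was 2505 ± 46.0 CPM in DN (SD, n = 4 libraries, both genotypes), 2964 ± 60.7 CPM in DPbla, 3117 ± 78.4 CPM in DPre, 2952 ± 68.2 CPM in DPsel, 2441 ± 87.1 CPM in CD4SP and 2378 ± 113 CPM in CD8SP. In CPM every library of DN and of the single-positive classes lay below every library of the 3 double-positive classes. With TMM factors DPbla alone was apart, at 2946 to 3203, above every library of the other stages (at most 2797, in DPsel). The libraries of DPre (2586 to 2753) then overlapped those of DN, DPsel, CD4SP (2572 to 2772) and CD8SP. In molecules, a DPbla cell carried 26.8 UMIs of the 37 genes on average and a DPre cell 8.79. The median of all UMIs a cell was 7792.5 to 9822 in DPbla and 2206 to 3083 in DPre. All levels below are shares (CPM), and a lower share in DPbla does not mean fewer molecules per cell. DSIF, for example, was at 370 CPM in DPbla and 528 CPM in DPre but at 3.35 and 1.497 UMIs per cell, and P-TEFb at 226 and 315 CPM but at 2.05 and 0.889 UMIs per cell.

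Of the 6 pairs of stages compared, DPbla and DPre, the step at which blasts leave the cell cycle, had the most members apart in CPM. This pair also had the most of all genes apart, 1899 higher and 4321 lower in DPbla, so the count is not particular to the members. A gene was counted as apart where all 4 libraries of one stage lay above all 4 of the other in CPM, and no test was made, since the stages are clusters of the same cells. Of 36 genes of the set with a mean of at least 5 CPM, 5 (13.9%) were apart and higher in DPbla, against 20.1% of the 9450 genes at that level. Another 17 (47.2%) were apart and lower, against 45.7%. The median gene had a log2 ratio of -0.29 and the median of the 36 was -0.19. With TMM factors, which centre the median gene near 0 (-0.017), 14 of the 36 were higher (31.1% of all genes) and 7 lower (29.1%). Only 12 genes were apart in the same direction under both scalings: Larp7, Nelfe, Supt16, Ssrp1 and Ints11 were higher in DPbla, and Ccnt2, Aff1, Aff4, Ell, Supt4a, Paf1 and Pcf11 were lower.

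The promoters of FACT, Larp7 and Aff1 are shown because these genes had the largest opposite ratios between DPbla and DPre for which a promoter sequence was on hand, FACT and Larp7 being higher in the blasts and Aff1 higher in the resting cells. The sequences are from RefSeq on GRCm38.p6, run from 250 bases before to 50 bases after the annotated start and read 5′ to 3′ on the gene's strand. Capitals mark a match to any of 4 E2F words, TTTCCCGC, TTTGGCGC, TTTCGCGC and TTTGCCGC, on either strand; E2F factors bind such words at genes of the cell cycle. The Ssrp1 window lies at chr2:85037201-85037500 on the plus strand, that of Supt16 at chr14:52197190-52197489 on the minus strand, that of Larp7 at chr3:127553300-127553599 on the minus strand and that of Aff1 at chr5:103753912-103754211 on the plus strand.
Ssrp1: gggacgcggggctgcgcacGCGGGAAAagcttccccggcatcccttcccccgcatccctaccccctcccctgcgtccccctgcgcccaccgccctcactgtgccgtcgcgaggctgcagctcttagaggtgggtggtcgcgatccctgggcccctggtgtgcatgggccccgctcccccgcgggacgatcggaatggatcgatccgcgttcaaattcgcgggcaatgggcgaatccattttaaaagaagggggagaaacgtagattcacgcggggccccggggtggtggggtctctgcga
Supt16: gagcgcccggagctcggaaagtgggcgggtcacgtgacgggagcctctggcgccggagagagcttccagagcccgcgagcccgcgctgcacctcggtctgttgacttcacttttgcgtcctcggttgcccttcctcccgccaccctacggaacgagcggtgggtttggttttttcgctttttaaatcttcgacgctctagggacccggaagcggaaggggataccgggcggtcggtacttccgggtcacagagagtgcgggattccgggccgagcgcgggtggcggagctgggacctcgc
Larp7: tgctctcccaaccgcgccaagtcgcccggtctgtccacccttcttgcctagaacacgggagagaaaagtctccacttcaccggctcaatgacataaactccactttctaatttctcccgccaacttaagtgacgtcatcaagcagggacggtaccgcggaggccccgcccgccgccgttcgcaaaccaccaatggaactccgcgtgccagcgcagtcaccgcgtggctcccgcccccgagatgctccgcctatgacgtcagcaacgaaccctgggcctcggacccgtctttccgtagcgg
Aff1: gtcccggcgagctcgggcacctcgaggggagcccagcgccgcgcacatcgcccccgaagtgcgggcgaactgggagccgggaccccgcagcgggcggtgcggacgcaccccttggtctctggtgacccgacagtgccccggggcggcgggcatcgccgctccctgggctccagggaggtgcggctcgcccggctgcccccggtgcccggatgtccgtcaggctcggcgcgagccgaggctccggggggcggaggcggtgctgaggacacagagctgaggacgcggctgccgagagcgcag
Of these windows the Ssrp1 one held a match, GCGGGAAA on the plus strand, starting at base 20, and the other 3 held none of the 4 words. Among the 34 promoters found for 31 genes of the set, 2 held an E2F word, those of Polr2a and Ssrp1, against 2.26% of 32851 promoters. The word TTTGAA, the core of the CHR element of genes expressed late in the cell cycle, was in 3 of the 34 promoters (Ssrp1 with both of its starts and Ints6), against 17.9% of all, and CCAAT in 13, against 37.4%. All words were searched on both strands, and a match describes letters only. Ssrp1 and Aff1 each have a second annotated start, and neither of those windows held an E2F word. In GENCODE M21 the Aff1 gene begins further upstream, at chr5:103692374, and neither Aff1 window covers that start.

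The subunits of the pausing factor NELF had unequal ratios between these stages. Nelfe, its RNA-binding subunit, had 78.6 CPM in control 1, 77.6 in control 2, 85.0 in cKO 1 and 69.9 in cKO 2 among DPbla cells. Among DPre cells these were 14.9, 15.4, 16.6 and 15.9 CPM. Every DPbla value lay above every DPre value, and the median ratio within libraries was 4.84-fold (5.87-fold with TMM factors). Nelfe was at its lowest in DPre, apart from all other stages under both scalings, and its means were 39.4 ± 4.40 CPM in DN, 24.9 ± 3.54 CPM in DPsel, 21.7 ± 0.856 CPM in CD4SP and 39.5 ± 6.56 CPM in CD8SP (SD, n = 4). Nelfa was at 57.4 CPM in DPbla and 51.2 in DPre, Nelfb at 46.7 and 51.0, and Nelfcd at 45.7 and 36.7. For each of these 3 the libraries of both stages overlapped in CPM, but with TMM factors all 3 were apart and higher in DPbla.

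Within DPbla, Nelfe was not evenly spread. Clusters 8 (led by Hells, Cdc6 and other S phase genes) and 7 (led by Mki67 and Top2a) held it at 85.0 and 100 CPM, means of 4 libraries. Cluster 10, led by Cenpf, Cdc20 and Ccnb1, genes of mitosis, held it at 8.69 and 11.2 CPM in controls against 17.2 and 12.3 CPM in cKO. By its markers cluster 10 was nearly as close to DPre as to DPbla. Its score, the mean log2 excess of a class's markers over the other clusters, was 1.82 for DPbla and 1.685 for DPre. Clusters 8 and 7 scored 0.486 and 0.654 for DPre. The median cell had 4943 UMIs in cluster 10 and 9383 and 9972 in clusters 8 and 7. No library of cluster 10 reached the lowest of clusters 7 and 8 (71.5 CPM), and its values overlapped those of DPre. Nelfe, Larp7, Supt16 and Ssrp1 were lower in cluster 10 than in both other clusters in all libraries. Of 36 genes, 8 were apart and higher in cluster 7 than in cluster 8 (18.1% of 8768 genes) and 3 lower (12.2%), 7 were apart and higher in cluster 7 than in cluster 10 (16.5% of 8925 genes) and 7 lower (27.1%), and 6 were higher in cluster 8 than in cluster 10 (15.2% of 9002 genes) and 12 lower (32.3%).

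**Figure D1:**
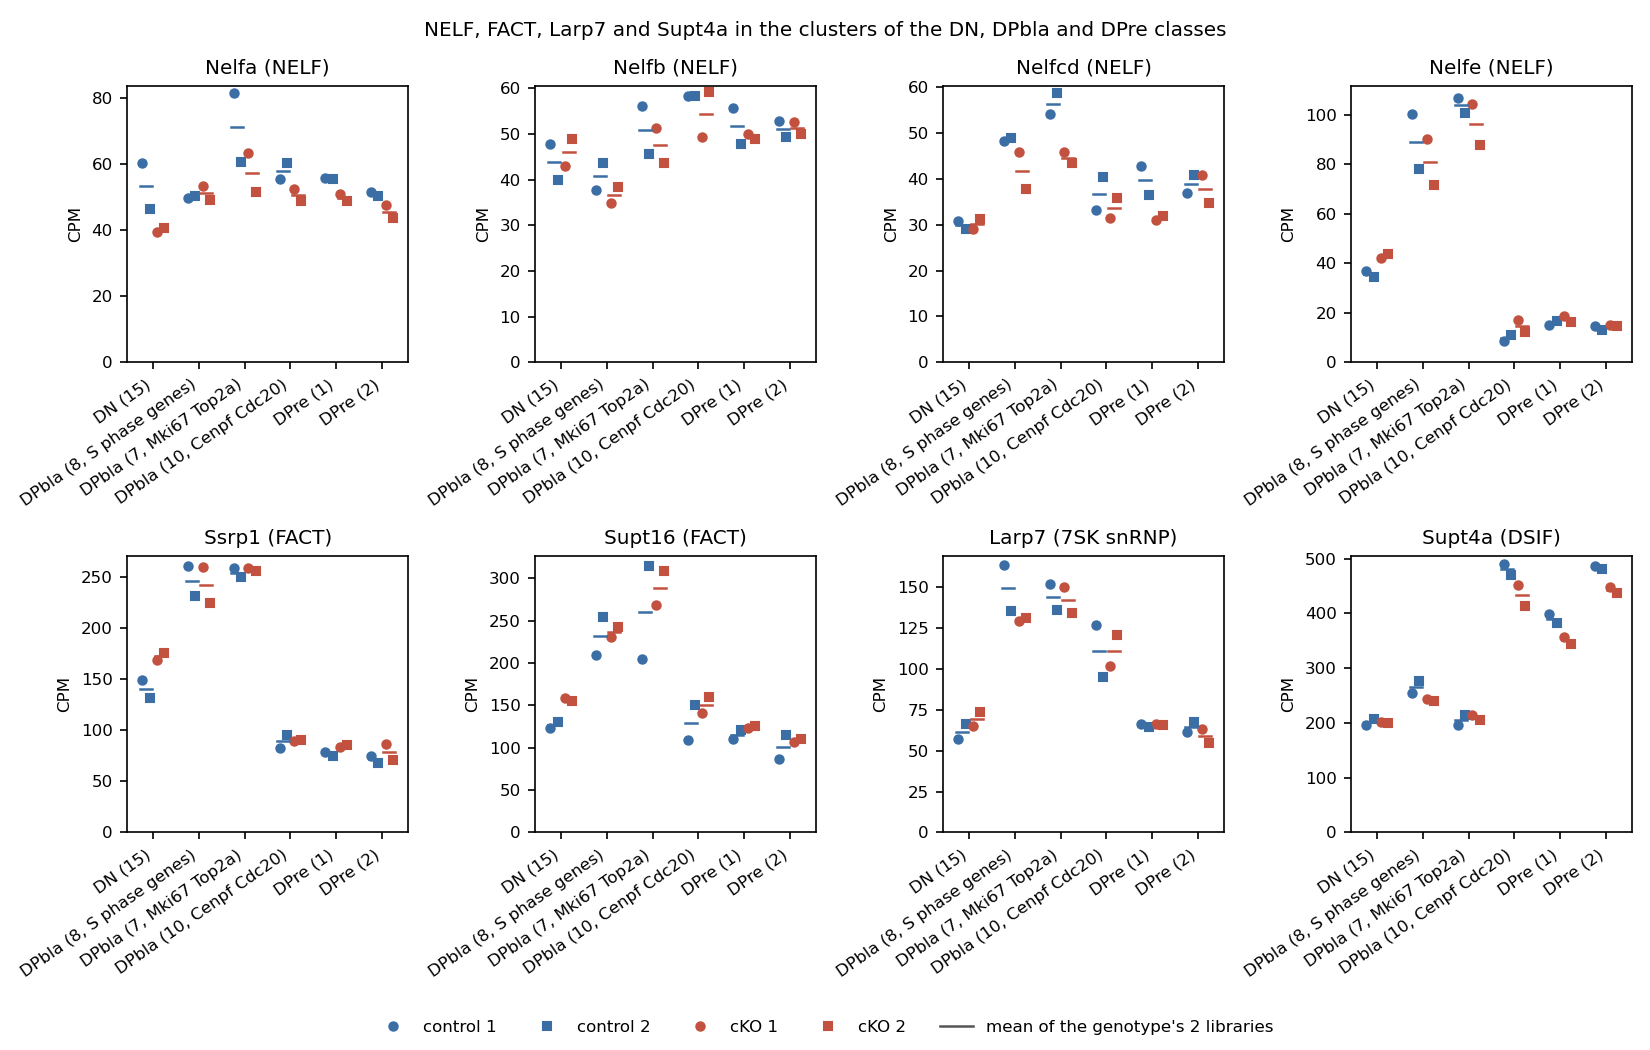
CPM (y axis, from 0) of the 4 NELF subunits, both FACT subunits, Larp7 and Supt4a in 6 clusters (x axis, cluster number in brackets); blue is control and red cKO, circles and squares are libraries 1 and 2, and bars are means of a genotype's 2 libraries. Nelfe, Ssrp1 and Supt16 are high in the DPbla clusters 8 and 7 and near the DPre level in cluster 10, while Supt4a is highest in cluster 10 and DPre cluster 2 and the other NELF subunits vary less.

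FACT, which takes nucleosomes apart ahead of the polymerase and rebuilds them behind it and also serves replication, was highest in DPbla. Ssrp1 was at 212, 217, 232 and 219 CPM in the DPbla sums of control 1, control 2, cKO 1 and cKO 2. In DPre the values were 76.8, 72.8, 84.3 and 79.6 CPM, all far below, with a median ratio of 2.74-fold (3.36-fold with TMM factors). DN followed DPbla with 157 ± 20.2 CPM and CD8SP with 142 ± 4.45 CPM, and these 2 stages overlapped. Supt16, its partner, was at 181, 266, 233 and 259 CPM in DPbla and at 101, 119, 118 and 121 CPM in DPre, a ratio of 2.05-fold (2.52-fold with TMM factors). Control 1 was the lowest library for Supt16 in each of the 6 stages. Supt16 (chr14:52160414-52197416, minus strand) lies 81730 bp from Tox4, and its gene overlaps Rpgrip1 on the opposite strand. In clusters 8 and 7 Ssrp1 was at 245 and 256 CPM and in cluster 10 at 89.8 CPM, and Supt16 at 234, 274 and 140 CPM.

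In the 7SK particle, Larp7, which binds and protects the 7SK RNA, stood apart from Hexim1 and Mepce. Larp7 was at 149, 129, 134 and 131 CPM in DPbla (control 1, control 2, cKO 1, cKO 2) and at 64.0, 66.0, 65.6 and 61.4 CPM in DPre, a median ratio of 2.07-fold (2.54-fold with TMM factors). Its next highest stage was DPsel, at 91.6 ± 5.08 CPM (SD, n = 4), and in CPM DPbla, DPsel and the following stages did not overlap, while with TMM factors DPsel and CD8SP did. Hexim1, the inhibitor of Cdk9, was at 33.5 CPM in DPbla and 43.4 CPM in DPre, and Mepce, which caps 7SK, at 47.6 and 49.4 CPM, with overlapping libraries for both. The 7SK RNA itself was not measured.

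P-TEFb was read from its kinase and both cyclins. Cdk9 had 94.2, 80.2, 92.6 and 76.5 CPM in DPbla and 107, 110, 103 and 103 CPM in DPre, apart in CPM but overlapping with TMM factors. Ccnt2, one of the alternative cyclins, was at 67.8, 64.4, 62.1 and 56.3 CPM in DPbla and at 110.5, 112, 99.8 and 99.9 CPM in DPre, a median ratio of 1.68-fold in favour of DPre (1.38-fold with TMM factors). Ccnt2 was the P-TEFb gene that kept its order under both scalings, and its DPre libraries stood above every other stage. The largest subunit of the polymerase, Polr2a, was at 157, 175, 146 and 177 CPM in DPbla and at 168, 173, 162 and 175 CPM in DPre, which overlapped, while with TMM factors DPbla was above. Polr2a was at 107 ± 6.17 CPM in CD4SP and 100 ± 9.25 CPM in CD8SP (SD, n = 4), with every library below every DPsel library in CPM but not with TMM factors.

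Members of the super elongation complex were highest in different stages. Aff1, a scaffold of the complex, was at 76.5, 64.2, 54.9 and 66.9 CPM in DPbla and at 132, 130, 116 and 146 CPM in DPre, then at 44.9 ± 9.20 CPM in DPsel, 30.2 ± 2.16 CPM in CD4SP and 28.5 ± 2.47 CPM in CD8SP. Its DPre libraries lay above every other stage under both scalings, by 2.05-fold over DPbla at the median (1.68-fold with TMM factors), and the mean of the highest stage was 4.61 times that of the lowest. Aff4, the alternative scaffold, was at 38.1, 37.1, 34.0 and 35.1 CPM in DPbla and at 66.1, 49.7, 56.6 and 59.6 CPM in DPre, a ratio of 1.66-fold in favour of DPre (1.36-fold with TMM factors). Its level in DPsel was 71.6 ± 7.53 CPM and in CD4SP 63.8 ± 9.25 CPM. Mllt3, a reader of acylated histones, was highest in CD4SP, with 127 and 139 CPM in controls and 162 and 165 CPM in cKO. All 4 lay above every other library of every stage, and CD8SP held only 67.0 ± 8.03 CPM. Ell was at 10.8 CPM in DPbla and 17.8 CPM in DPre, and Mllt1 at 17.8 and 15.7 CPM. Ell2, known for its role in antibody-secreting cells, gave 0 to 19 UMIs per sum, with 13 of the 24 sums at or under 3 UMIs; a sum with no UMI allows up to 1.05 to 1.19 CPM, which covers counting error only.

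**Figure D2:**
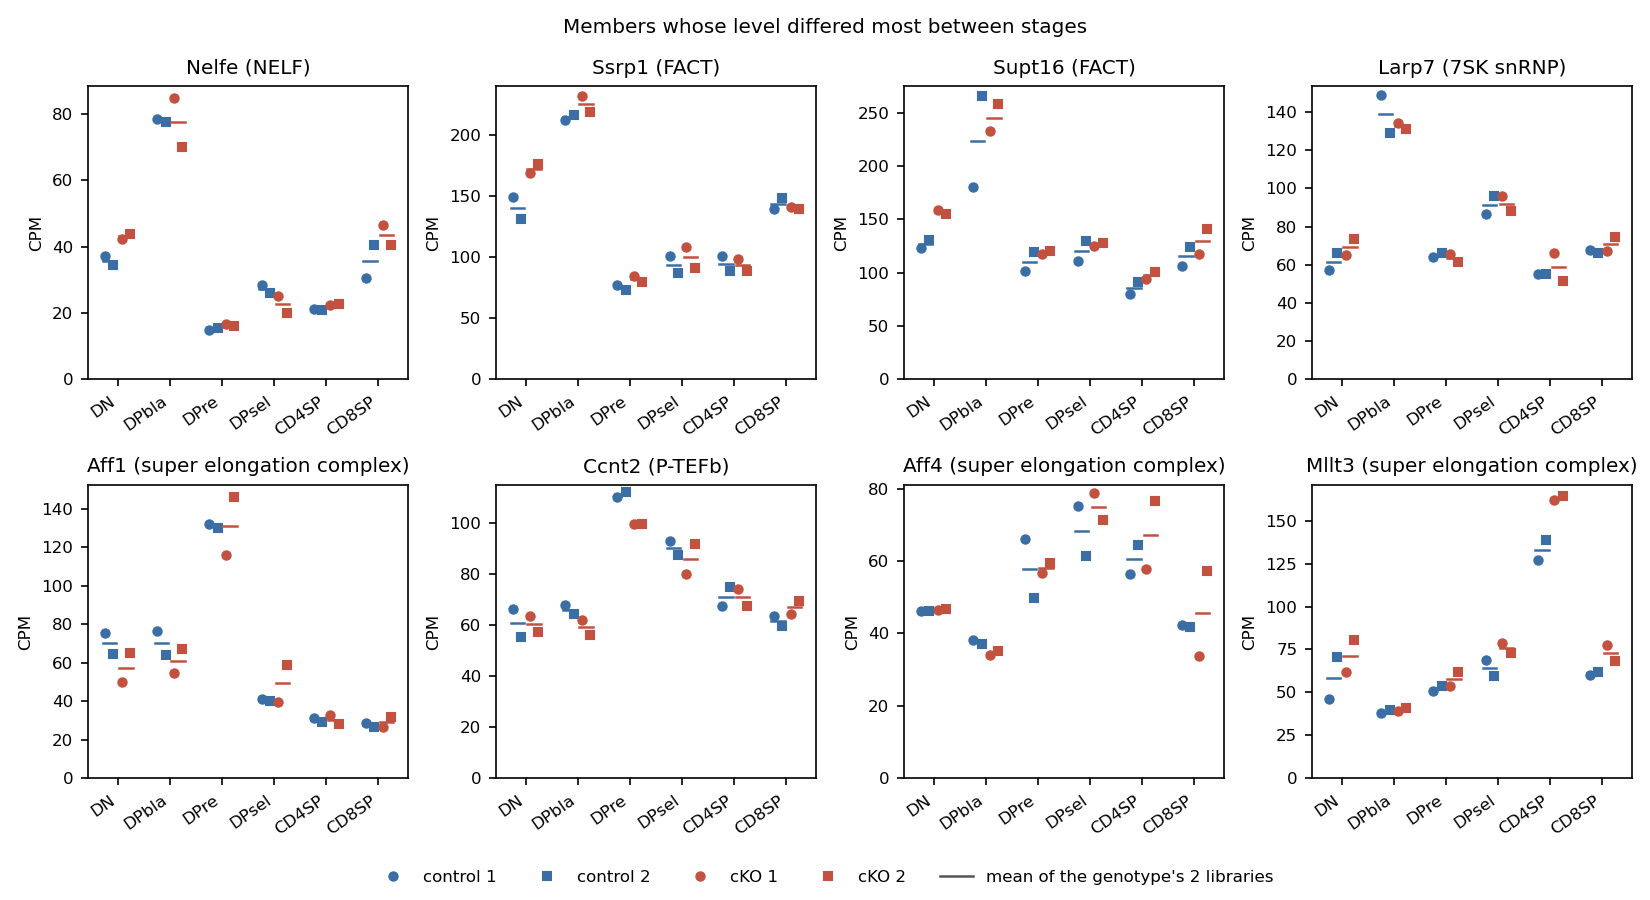
CPM (y axis, from 0) of Nelfe, Ssrp1, Supt16, Larp7, Aff1, Ccnt2, Aff4 and Mllt3 in the 6 stages (x axis); blue is control and red cKO, circles and squares are libraries 1 and 2, and bars are means of a genotype's 2 libraries. The first 4 genes peak in DPbla, Aff1 and Ccnt2 in DPre and Mllt3 in CD4SP, in control and cKO libraries alike.

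In DSIF, the small subunit Supt4a had the opposite order to FACT. It was at 292, 280, 264 and 251 CPM in DPbla and at 428, 414, 399 and 376 CPM in DPre, lower in DPbla under both scalings (median ratio 1.49-fold, and 1.21-fold with TMM factors). Inside DPbla, cluster 10, whose markers also scored near DPre, held 457 CPM and clusters 8 and 7 held 254 and 208 CPM. All libraries of cluster 10 lay above those of the other DPbla clusters. Supt5, the large subunit and a substrate of Cdk9, was at 100, 96.0, 90.7 and 106 CPM in DPbla and at 118, 117, 125 and 136 CPM in DPre, apart in CPM only.

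In the PAF complex Rtf1, which promotes histone H2B ubiquitination, was highest in DPsel, at 262 ± 7.73 CPM (SD, n = 4) against 192 ± 3.61 CPM in DPre, and within DPsel it reached 326 CPM in cluster 5 (led by Itm2a and Il7r) against 242 CPM in cluster 3 and 174 CPM in cluster 14, with no overlap of libraries. With TMM factors Rtf1 in DPsel was no longer apart from every other stage. Between these clusters of DPsel, 6 of 36 genes were higher in cluster 3 than in cluster 5 (18.3% of 9154 genes) and 2 lower (10.2%), 13 were higher in cluster 3 than in cluster 14 (25.9% of 9186) and 2 lower (13.6%), and 3 were higher in cluster 5 than in cluster 14 (12.7% of 9125) and 1 lower (10.5%). Leo1, Ctr9, Cdc73 and Paf1 had ratios of highest to lowest stage mean CPM between 1.53 and 2.25. Cdk12 was at 71.4, 89.2, 93.4 and 102 CPM in DPbla and at 109, 131, 141 and 167 CPM in DPre, apart in CPM only. Pcf11, a cleavage factor, was at 63.2 CPM in DPbla and 100 CPM in DPre, lower in DPbla under both scalings, and Xrn2, the torpedo exonuclease, varied by 1.30 times in CPM between its highest and lowest stage. Tcea1 and Nelfb varied by 1.23 and 1.22 times in CPM and by 1.25 and 1.16 times with TMM factors. Ints11, the nuclease of Integrator, was at 64.1 CPM in DPbla and 45.3 CPM in DPre, apart under both scalings.

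The steps after DPre were read the same way. From DPre to DPsel, 10 of 36 genes were apart and higher in DPre (26.9% of all genes) and 5 lower (19.5%), and with TMM factors 6 were higher (19.5%) and 7 lower (25.3%). Aff1, Ccnt2, Cdk9, Ctr9, Iws1 and Ccnk were higher in DPre under both scalings, and Larp7, Nelfe, Rtf1, Ssrp1 and Tcea1 were lower. From DPsel to CD4SP, 16 genes were higher in DPsel (35.5% of all genes) and 1, Mllt3, lower (9.25%), but with TMM factors 3 were higher (14.3%) and Mllt3 lower (17.3%), beside a CPM shift of the median gene of 0.25 on the log2 scale. Against CD8SP, 17 genes were higher in DPsel (35.1%) and 2, Nelfe and Ssrp1, lower (10.8%), and with TMM factors 5 were higher (14.3%) and 5 lower (22.2%). In CPM, CD4SP and CD8SP were apart in 6 genes: Mllt3 and Rtf1 were higher in CD4SP (10.0% of all genes), and Nelfe, Supt16, Ssrp1 and Xrn2 higher in CD8SP (13.1%). With TMM factors these 6 stayed apart and Larp7 was also higher in CD8SP, which gave 2 genes (9.16% of all) and 5 (14.1%). From DN to DPbla, 2 genes were higher in DN (25.1%), Aff4 and Mllt3, and 10 higher in DPbla (24.3%), among them Polr2a, Larp7, Supt4a, Supt5, Nelfe and FACT. With TMM factors these counts were 2 (22.3%) and 12 (27.8%).

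Among the 71 further pathway genes, 66 passed the same level filter, and between DPbla and DPre 22 were apart and higher in DPbla and 18 lower, against 20.1% and 45.7% of all genes. With TMM factors these were 37 and 7, against 31.1% and 29.1%, and the same shares stand beside the counts that follow. Of the Pol II subunits other than Polr2a, 8 of 12 were higher in DPbla and 0 lower, and with TMM factors all 12 were higher. Of the 10 genes of the PNUTS-PP1 and tail phosphatase list, 2 (Ppp1ca and Ppp1cc, catalytic subunits) were higher and 4 lower, among them Ppp1r10, which encodes PNUTS, but with TMM factors 5 were higher and 1 lower.

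The second comparison asked whether loss of Tox4 moved the mRNAs of this machinery, stage by stage. None of the 37 genes passed the test in any class with libraries taken as unpaired, and up to 4 did with libraries paired by number. The edgeR quasi-likelihood test was run on the sums of the 2 control and 2 cKO libraries and adjusted over all genes of a class. Among 37 members in DPre and in all double-positive cells, and 36 in each other class (without Ell2), the count called was 0. Of all genes tested, 0.0228% were called in DN, 2.70% among blasts (DPbla), 1.90% in DPre, 0.209% during selection (DPsel), 0.221% in CD4SP, 0.0104% in CD8SP and 5.94% in all double-positive cells. At an unadjusted p under 0.05 there were 3, 1, 1, 4, 3, 2 and 5 members in the same order, against 7.22%, 16.0%, 15.04%, 8.25%, 8.08%, 6.84% and 20.9% of all genes. DESeq2 called 1 member, Ssrp1, in all double-positive cells and 0 in the other 6 classes. The study examined its mice as pairs. With the library number as a replicate block, edgeR called 1 member in DPbla (Cdk12, beside 1186 of all 10776 genes), 1 in DPre (Cdk12; 1054 of 11718, or 8.99%), 2 in DPsel (Supt4a and Cdk12; 263 of 10507), 1 in CD4SP (Supt4a; 156 of 9505, or 1.64%) and 4 in all double-positive cells (Ssrp1, Cdk12, Supt16 and Nelfe; 2017 of 12806, or 15.8%). It called 0 in DN (0.569% of all genes) and in CD8SP (0.104%). The median difference of the members was between 0.018 (DPre) and 0.084 (CD8SP) on the log2 scale, against -0.0056 to 0.0052 for all genes.

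The intervals of the fit give the precision. In DPre 35 of 37 members, and in DPbla 32 of 36, had a 95% interval that stayed within 1.5-fold in both directions, and 36 in each stayed within 2-fold. The median SE of a member's log2 difference was 0.11 in DPre and 0.12 in DPbla but 0.19 in DN, the class with the fewest UMIs. In simulated sums of the same depth, the test called 38.4% of the genes changed by 0.5 on the log2 scale in DPre and 23.96% in DPbla, and 77.3% and 81.4% of those changed by 1. The changed genes were drawn at random from all genes tested and no pairing was simulated, so these shares do not give the recovery of the members.

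**Figure D3:**
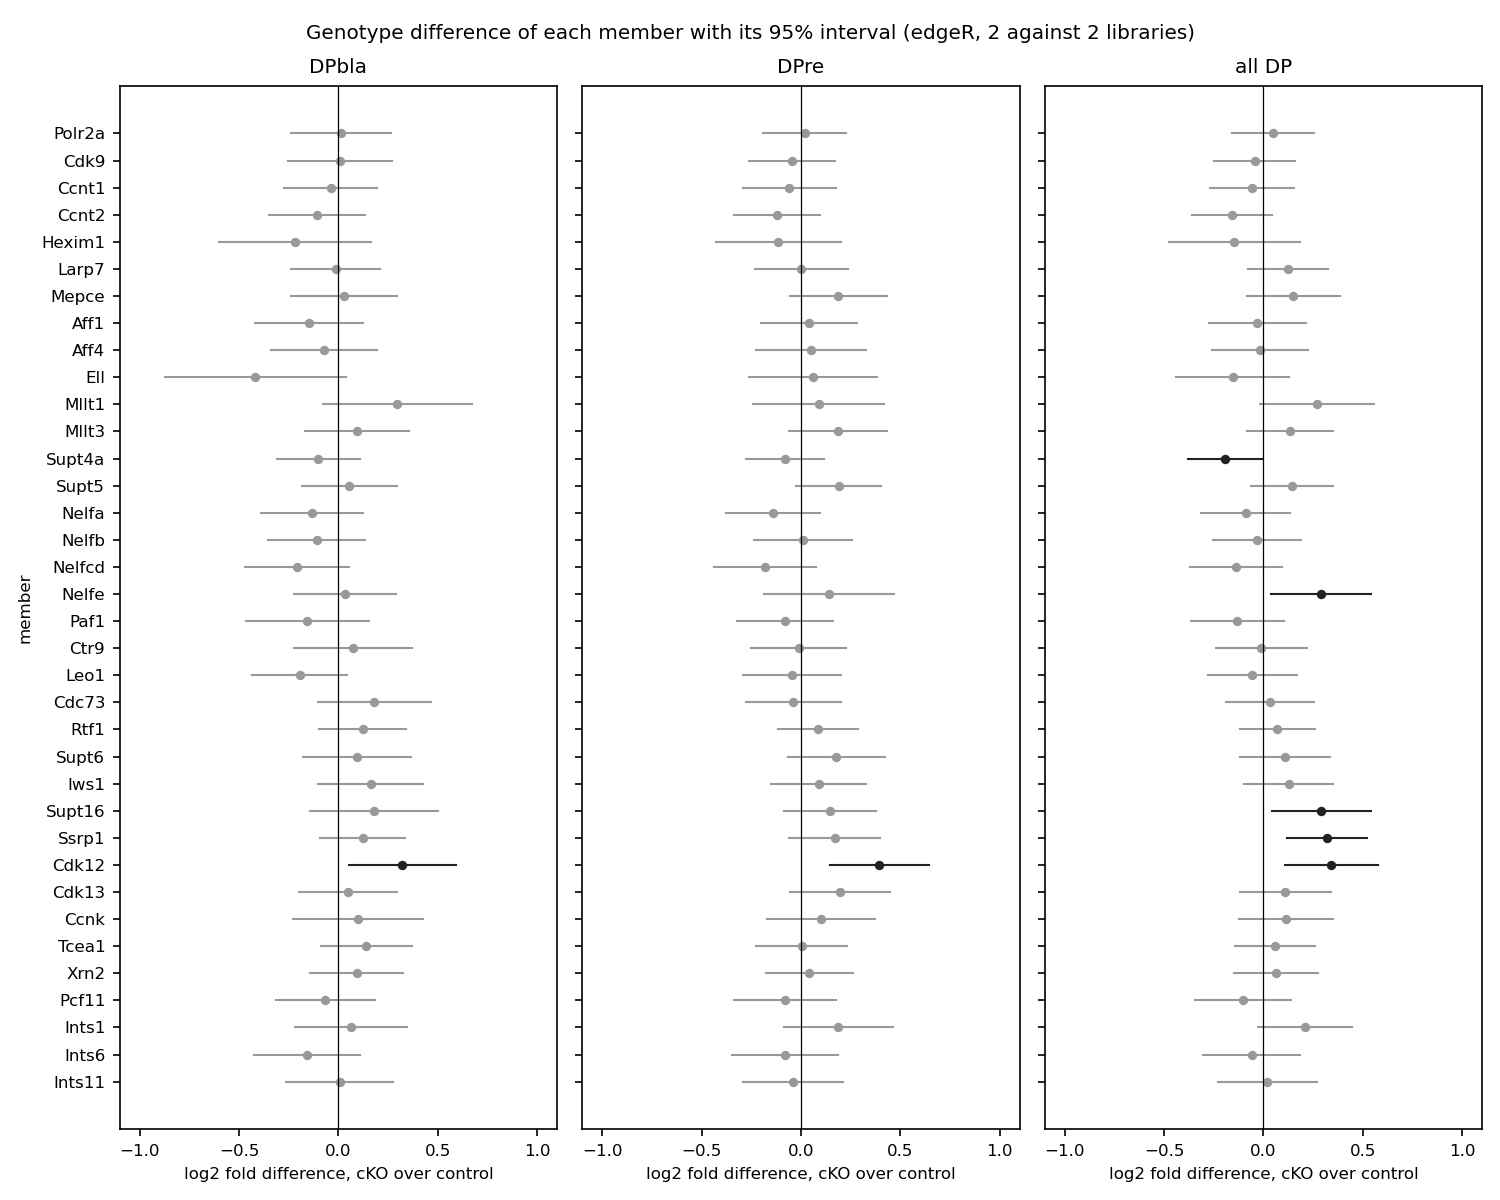
Log2 difference of cKO over control (x axis) with its 95% interval for 36 genes (y axis) in DPbla, DPre and all double-positive cells, from the edgeR fit on 2 control and 2 cKO libraries; Ell2 is left out. Black marks an unadjusted p under 0.05 and grey the rest; no gene passed the adjusted threshold in this unpaired fit, and Cdk12 is the only black point in DPbla and in DPre.

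Polr2a, the enzyme, and Cdk9, the kinase at the centre of release, differed little in DPre. In DPre Polr2a was at 168 and 173 CPM in control and 162 and 175 CPM in cKO libraries (log2 difference 0.018, 95% interval -0.19 to 0.23). Cdk9 in DPre was at 107 and 110 CPM in control and 103 and 103 CPM in cKO libraries (log2 difference -0.044, interval -0.26 to 0.17). Both intervals included changes in either direction. Polr2a had both cKO libraries above both controls in CD4SP and CD8SP, though it was called in neither. It was at 99.96 and 104 CPM in control and 109 and 114 CPM in cKO libraries of CD4SP. In CD8SP the values were 89.2 and 99.1 CPM against 101 and 112 CPM. Supt5, the DSIF subunit that Cdk9 phosphorylates, had both cKO libraries above both controls in every stage but DPbla. In DPre it was at 118 and 117 CPM in control and 125 and 136 CPM in cKO libraries (log2 difference 0.19, interval -0.023 to 0.40, edgeR adjusted p = 0.399). The largest of its 6 stage differences was in CD4SP, at 73.3 and 61.4 CPM in control and 84.6 and 86.0 CPM in cKO libraries (log2 difference 0.32, SE 0.13, edgeR adjusted p = 0.546), where it was 1 of the 3 members with an unadjusted p under 0.05. Over 14 alternatives the CD4SP difference was between 0.21 and 0.44, with an edgeR adjusted p between 0.286 and 0.852.

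Cdk12, the kinase that sustains elongation in long genes and those of DNA repair, had the smallest p of the members in DPbla and DPre. In DPbla it was at 71.4 and 89.2 CPM in control and 93.4 and 102 CPM in cKO libraries (log2 difference 0.32, SE 0.13, edgeR adjusted p = 0.219). In DPre it was at 109 and 131 CPM against 141 and 167 CPM (log2 difference 0.39, SE 0.12, edgeR adjusted p = 0.103). Both cKO libraries lay above both controls in these stages, in DPsel and in CD8SP, while in DN and CD4SP control 2 lay above cKO 1. Within same-numbered libraries the cKO was the higher one in all 6 stages, at 76.0 against 121 and 124 against 141 CPM in CD4SP. With the replicate block the Cdk12 difference was 0.33 in DPbla, 0.40 in DPre, 0.43 in DPsel and 0.37 in CD4SP (edgeR adjusted p = 0.0106, 0.000572, 0.00759 and 0.0716). Control 1 was its lowest library in each of the 6 stages. Without control 1 it was 0.26 in DPre and 0.15 in DPbla (edgeR adjusted p = 0.533 and 0.808), and without control 2 it was 0.54 in both (edgeR adjusted p = 0.0315 and 0.0320). Without cKO 2 it was 0.27 and 0.26. Several marker sums moved with genotype in the same classes. In DPre the 10 cycling DPbla markers were at 264 to 351 CPM in controls and 397 to 425 CPM in cKO, the 8 DN markers at 38.4 to 41.4 and 66.4 to 76.7 CPM, and the 6 erythroid markers at 16.7 to 20.5 and 28.2 to 42.1 CPM. In DPbla the class's own markers were at 5965 to 6052 CPM in controls and 5570 to 5688 CPM in cKO, and the 7 DPre markers at 3330 to 3601 and 2993 to 3022 CPM. There the DN markers were at 36.2 CPM in both controls and 61.4 to 66.9 CPM in cKO. Erythroid markers were at 8.37 to 11.4 and 13.9 to 14.9 CPM and CD4SP markers at 285 to 327 and 214 to 228 CPM. The CD8SP markers were at 45.3 to 62.8 and 67.2 to 72.6 CPM, and gamma-delta markers at 204 to 218 and 172 to 186 CPM. The part of these markers in the Cdk12 differences was not tested.

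Leo1 and Ell were next by p in DPbla, and Supt5 and Cdk13 in DPre. Leo1 was at 62.7 and 64.4 CPM in controls against 55.0 and 52.5 CPM in cKO (log2 difference -0.20, edgeR adjusted p = 0.433). Cdk13, the partner kinase of Cdk12, was at 82.9 and 90.7 CPM against 86.8 and 107 CPM, which overlapped (log2 difference 0.20, edgeR adjusted p = 0.465). Counted without a test, members with both cKO libraries above both controls numbered 14 in CD4SP (21.8% of all genes), 12 in CD8SP (19.0%), 6 in DN (16.7%), 8 in DPre (18.4%), 3 in DPbla (18.0%), 7 in DPsel (17.9%) and 7 in all double-positive cells (19.8%). Those with both below numbered 3 in CD4SP (16.7%), 1 in CD8SP (17.5%), 9 in DN (20.7%), 6 in DPre (28.5%), 9 in DPbla (29.3%), 5 in DPsel (19.8%) and 8 in all double-positive cells (32.5%).

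Supt4a had both cKO libraries below both controls in every stage but DN, with the larger differences in DPsel, CD4SP and CD8SP. In DPsel it was at 428 and 411 CPM in control and 301 and 328 CPM in cKO libraries (log2 difference -0.40, SE 0.10, edgeR adjusted p = 0.140). CD4SP gave 320 and 299 CPM against 242 and 243 CPM (log2 difference -0.38, SE 0.10, edgeR adjusted p = 0.198), and CD8SP 337 and 278 CPM against 228 and 228 CPM (log2 difference -0.45, SE 0.12, edgeR adjusted p = 0.299). The difference was -0.50 to -0.35 over 14 alternatives in DPsel, -0.41 to -0.27 over 14 in CD4SP and -0.57 to -0.26 over 13 in CD8SP. The groups did not overlap in any of these classes, although no value passed the adjusted test without pairing. With the replicate block the Supt4a differences were -0.40, -0.38 and -0.44 in the same order (edgeR adjusted p = 0.000545, 0.00760 and 0.188). In DPbla and DPre, where they did not overlap either, the log2 differences were -0.10 and -0.082, and whether the difference varies between stages was tested only for DPbla against DPre (log2 difference -0.022, edgeR adjusted p = 0.969). Macrophage markers, summed over 10 genes, were at 174 to 179 CPM in controls and 233 to 287 CPM in cKO among CD8SP cells and at 133 to 138 and 169 to 177 CPM among CD4SP cells, while in DPsel they overlapped (216 to 224 and 221.5 to 249 CPM). Erythroid markers, summed over 6 genes, were at 14.6 to 24.5 CPM in controls and 34.99 to 70.3 CPM in cKO in DPsel, at 10.2 to 12.7 and 18.5 to 27.6 CPM in CD4SP and at 6.37 to 10.4 and 15.01 to 23.9 CPM in CD8SP. Markers of the cycling DPbla, summed over 10 genes, were at 269 to 328 CPM in controls and 382 to 407 CPM in cKO in DPsel and at 238 to 285 and 299.9 to 335 CPM in CD4SP, and they overlapped in CD8SP (661 to 1076 and 1046 to 1315 CPM). The 7 DPsel markers were at 3916 to 4156 CPM in controls and 3349 to 3554 CPM in cKO in DPsel, the 7 CD4SP markers at 2155 to 2292 and 1974 to 2019 CPM in CD4SP, and the 9 CD8SP markers at 1931 to 2025 and 2208 to 2273 CPM in CD8SP. Supt4a was itself lower in the cycling clusters 7 and 8 (208 and 254 CPM). The part of these markers in the Supt4a values was not tested.

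**Figure D4:**
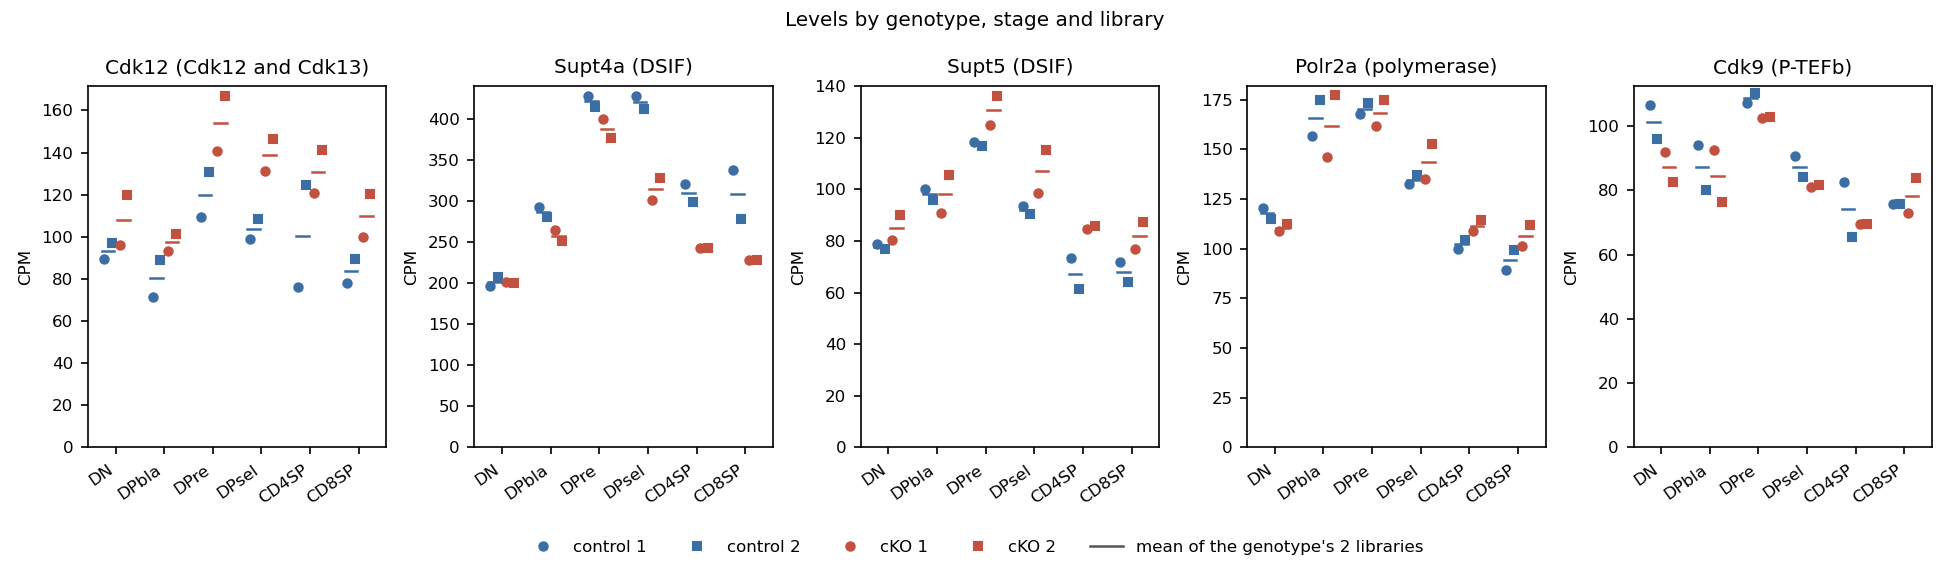
CPM (y axis, from 0) of Cdk12, Supt4a, Supt5, Polr2a and Cdk9 in the 6 stages (x axis); blue is control and red cKO, circles and squares are libraries 1 and 2, and bars are means of a genotype's 2 libraries. Cdk12 lies higher in cKO with control 2 close to cKO 1, and Supt4a lies lower in cKO in every stage but DN. Polr2a and Cdk9 differ little in DPre, and Polr2a lies higher in cKO in CD4SP and CD8SP.

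With all double-positive cells summed, 5 of 37 members had an unadjusted edgeR p under 0.05, against 20.9% of all genes. Of these, Ssrp1, Supt16 and Nelfe were among the 11 members highest in DPbla in CPM, and the others were Cdk12 and Supt4a. Larp7, which was also highest in DPbla and apart from the next stage, was not among the 5. Ssrp1 was at 118 and 114 CPM in control and 146 and 134 CPM in cKO libraries (log2 difference 0.32, SE 0.094, edgeR adjusted p = 0.0620). Supt16 was at 125 and 161 CPM against 164 and 174 CPM (log2 difference 0.29, SE 0.12, edgeR adjusted p = 0.166), and without control 1 its difference was 0.10. Nelfe was at 34.8 and 34.3 CPM against 44.8 and 36.8 CPM (log2 difference 0.29, SE 0.12, edgeR adjusted p = 0.172), and Cdk12 at 97.0 and 115 CPM against 121 and 139 CPM (log2 difference 0.34, SE 0.11, edgeR adjusted p = 0.0855). Over 15 alternatives the difference was 0.13 to 0.44 for Nelfe, 0.21 to 0.48 for Cdk12 and 0.21 to 0.39 for Ssrp1. With the replicate block the edgeR adjusted p was 0.00349 for Ssrp1, 0.00469 for Supt16, 0.0443 for Nelfe and 0.00161 for Cdk12. The makeup of these sums differed by genotype: DPbla supplied 26.7% and 26.6% of their UMIs in control and 39.0% and 37.4% in cKO libraries. Within DPbla the Ssrp1 difference was 0.12 and within DPre 0.17, for Supt16 0.18 and 0.15, and for Nelfe 0.034 and 0.14, while for Cdk12 it was 0.32 and 0.39. Within DPbla the clusters shifted as well, cluster 10 taking 35.7% and 27.7% of the cells in control and 24.2% and 23.2% in cKO libraries. The part of this makeup in the summed values was not tested.

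The difference of the genotype effect between DPbla and DPre was called for 0 of the 37 members (0.459% of 11770 genes were called in this edgeR test; DESeq2 was not run on it). At an unadjusted p under 0.05 there was 1, Ell, with a log2 difference of -0.47 (SE 0.23, edgeR adjusted p = 0.518), and its DPbla values were 12.1 and 13.1 CPM in control against 7.61 and 10.4 CPM in cKO libraries. The value for Ell was between -0.83 and -0.21 over 12 alternatives. In DN Ssrp1 (log2 difference 0.34), Supt16 (0.32) and Pcf11 (-0.50) had an unadjusted p under 0.05, with edgeR adjusted p between 0.593 and 0.669. Over 12 alternatives these differences were 0.26 to 0.49, 0.28 to 0.51 and -0.87 to -0.25 in the same order. In the same DN sums the 10 cycling DPbla markers were at 458 to 489 CPM in controls and 865 to 913 CPM in cKO, and erythroid markers at 3.09 to 12.7 and 19.4 to 501 CPM, and their part in these differences was not tested. In CD4SP Mllt3 was at 127 and 139 CPM in control and 162 and 165 CPM in cKO libraries (log2 difference 0.27, edgeR adjusted p = 0.565).

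Of the further pathway genes, 1 passed the test in 1 class. Ttf2, an ATPase that removes RNA polymerase II from DNA in mitosis, rose in all double-positive cells from 16.9 and 16.0 CPM in control to 22.4 and 22.3 CPM in cKO libraries (log2 difference 0.49, SE 0.12, edgeR adjusted p = 0.0257, 1 of 69 genes against 5.94% of all). Within DPbla its difference was 0.28 (edgeR adjusted p = 0.254) and within DPre -0.060 (adjusted p = 0.927), beside the same shift in the blast share. Over 15 alternatives the summed difference was between 0.29 and 0.51, and 5 of them lost the call: the edgeR adjusted p for Ttf2 was 0.0722 without control 1, 0.0946 without control 2, 0.178 with a mitochondrial limit of 5%, 0.192 with the UMI extremes kept and 0.0547 with equal cells and UMIs per library. The tests of the 6 stages and of the difference between DPbla and DPre called 0 of 66 to 68 further pathway genes. Other settings made a few more calls. Polr2f, a small polymerase subunit, was called in DPbla without the filter on low counts and with the replicate block (log2 difference 0.38 and 0.37, edgeR adjusted p = 0.0385 and 0.00149), and for the difference between DPbla and DPre without control 1 (0.40, edgeR adjusted p = 0.0439). In DPre Scaf4 was called with the block and without control 1 (0.36 and 0.56, edgeR adjusted p = 0.0220 and 0.0397). In all double-positive cells Polr2f was called with the block and without cKO 2, Scaf4 without cKO 1, and Spty2d1 without cKO 2 (log2 difference -0.49). These genes were singled out after their values were seen.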

How the data were processed

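Single-cell RNA-seq of thymocytes (10x Chromium 3′ version 3, about 20000 cells loaded a library) was available for 2 control and 2 cKO mice. The authors deposited filtered UMI count matrices made with cellranger 6.1.1 on GRCm38, so the values are raw counts, 1 library a mouse. Libraries held 42716798 to 62007453 UMIs over all barcodes. Barcodes with over 10% mitochondrial UMIs (20.6% to 48.3% a library), under 200 genes, the top and bottom 2.5% of UMI totals and the top 5% of Scrublet doublet scores were removed. The rest were clustered (scanpy 1.11.5, 3000 variable genes, 30 components, Leiden resolution 1) and named from fixed markers. A low-UMI cluster with cycling genes stayed unnamed by a rule set after the clusters were seen; joining it to DPbla is an alternative.

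UMI counts were summed per library and class (at least 30 cells) and tested with edgeR 4.0.16 (TMM, filterByExpr, quasi-likelihood, Benjamini-Hochberg over all genes of a class, called at adjusted p under 0.05), in R 4.3.3; DESeq2 1.42.0 was an alternative. The study speaks of 2 pairs of mice and of littermates, and it kept genes that moved the same way in each replicate, so libraries of the same number were read as pairs, although the labels do not say so. Same-numbered libraries deviated from their group means with a correlation over genes of 0.070 (CD8SP) to 0.243 (all double-positive cells). The main fit has no pairing, and the fit with the replicate block is given beside the results it changes. The difference between DPbla and DPre effects was fitted on 8 sums with a library term. The tests were tested on simulated data. Stage ratios are log2((CPM + 1)/(CPM + 1)) within libraries. Positions are from GENCODE M21. The 37 members and all lists were chosen with earlier results of these data known. All members may be named; full values per library are given for members called, the 3 with the smallest p in DPbla, DPre and all double-positive cells, the 3 with the largest DPbla to DPre ratio in each direction, and Polr2a, Cdk9, Supt5 and Supt4a; others, such as Mllt3 and Rtf1, were singled out after their values were seen. The lists of neutrophil, B cell and epithelial markers served naming only. Rn7sk and Supt4b were not analysed here. Some results of the further pathway genes under other settings are not reported here.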

Additional observations from a re-analysis of the deposited data

How the results depend on the processing

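Of 109 recomputed counts of members called between genotypes, 92 stayed at 0, and so did all for DN, CD8SP and the difference between DPbla and DPre. Without the filter on low counts the number was 1 in DPre (Cdk12), 1 in DPsel (Supt4a) and 2 in all double-positive cells (Ssrp1 and Cdk12). In all double-positive cells it was 1 with DESeq2, 1 with a mitochondrial limit of 5%, 1 at resolution 1.5 and 1 with the low-UMI cluster joined to its class, Ssrp1 each time. Leaving out 1 library gave 0 to 2 in DPbla (Cdk12 and Supt16 without control 2), 0 to 1 in DPre (Cdk12 without control 2) and 0 to 3 in all double-positive cells (Cdk12 and Supt16 without control 2 or without cKO 1, and Ssrp1, Nelfe and Hexim1 without cKO 2, Hexim1 with a log2 difference of -0.47). Among single members, the sign turned for Polr2a in all double-positive cells without control 1 (-0.0055) and without cKO 2 (-0.038; up to 0.13 without cKO 1), and for Cdk9 without cKO 2 (0.010; down to -0.099 without cKO 1). The cause was not tested. All genes called moved as well: without the filter they numbered 597 of 19044 in DPre, 138 of 17338 in DPsel and 1291 of 20305 in all double-positive cells, and without control 2 552 of 11240 in DPbla, 281 of 11851 in DPre and 806 of 13063 in all double-positive cells. In the last class they numbered 1090 of 13304 without cKO 1, 1001 of 13027 without cKO 2, 665 of 12806 with DESeq2, 353 of 11171 at the mitochondrial limit of 5%, 873 of 12859 at resolution 1.5 and 866 of 12852 with the low-UMI cluster.

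Of the deposited barcodes, 48.3% and 46.1% in the libraries numbered 1 and 20.6% and 23.1% in those numbered 2 (control and cKO) were over the mitochondrial limit. With the replicate block as a second term, which leaves 1 residual degree of freedom a gene, 1 member was called in DPbla (Cdk12), 1 in DPre (Cdk12), 2 in DPsel (Supt4a and Cdk12), 1 in CD4SP (Supt4a) and 4 in all double-positive cells (Ssrp1, Cdk12, Supt16 and Nelfe), while all genes called went from 291 to 1186 in DPbla, from 223 to 1054 in DPre, from 22 to 263 in DPsel, from 21 to 156 in CD4SP and from 761 to 2017 in all double-positive cells.

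Of 62 recomputed counts of members apart between stages, 56 stayed within 1.5 times. TMM factors took the count from 17 to 4 between DPsel and CD4SP and from 19 to 10 between DPsel and CD8SP. A mitochondrial limit of 5% took it from 15 to 8 between DPre and DPsel, and keeping the UMI extremes from 6 to 10 between CD4SP and CD8SP, where leaving out 1 library gave 8 to 11 (11 without control 1 and 11 without cKO 2). All genes apart went from 4226 to 2982 and from 4344 to 3446 with TMM factors, from 4386 to 3660 at the limit of 5%, and from 2191 to 2734 with the UMI extremes, 3211 without control 1 and 3202 without cKO 2. The mitochondrial limit of 5% left too few DN and CD8SP cells for a value, and keeping the UMI extremes too few DN cells.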

Other observations

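Outside the alpha-beta stages, Ell2 was higher in several clusters. It was at 11.7, 6.22, 19.2 and 12.7 CPM in the phagocyte clusters (control 1, control 2, cKO 1 and cKO 2; 3 to 10 UMIs a library) and at 25.5, 26.0, 6.91 and 10.7 CPM in the B cell cluster (1 to 5 UMIs), and at means of 12.6 and 18.0 CPM in unnamed clusters 13 and 18 (led by S100a9 and by Ubd), against at most 2.08 CPM in any of the 24 T cell sums. These are few molecules, and the ranges describe the libraries only.

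Aff4 was at 235, 175, 109 and 195 CPM in the 83 cells of the gamma-delta T cell cluster, above every library of the 6 alpha-beta stages, where its highest stage mean was 71.6 CPM. Aff1, the other scaffold, was at 49.9 CPM there, within the range of the alpha-beta stage means (28.5 to 131 CPM).

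Inside DPsel, Mllt3 and Tcea1 were lower in cluster 3 (55.6 and 91.4 CPM) than in cluster 14 (87.8 and 110 CPM, led by Xcl1, Tnfrsf9 and Nr4a1) in all libraries, and Aff1 was higher (63.3 against 31.7 CPM).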
